A study of Mus musculus with 12 samples.

Results

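The genes that build cholesterol, fatty acids and the lipids of the myelin sheath were followed in the mouse auditory nerve after ouabain injury. The group was drawn up by function, with earlier results of these data known, and lists 32 genes. Of these, 31 were measured by at least 1 probe set carrying exactly that gene symbol, of 18193 genes measured in all. The gene Acat2 is not analysed here. Where several probe sets report a gene, the one with the highest mean over the 12 arrays stands for it, and 65 probe sets report the 31 genes.

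The ouabain-treated nerves were those of the operated right ear of CBA/CaJ mice aged 8 to 12 weeks, of both genders, in which the round window niche had been bathed for about 60 min in 3 mM ouabain, a drug that blocks the sodium potassium pump. The control nerves came from the unoperated left ears of treated mice, so they carried no surgery or vehicle of their own. Nerves were taken at 3 or 7 days, which gives 4 groups of 3 arrays (ouabain-treated and control at 3 days, ouabain-treated and control at 7 days), and each array held RNA pooled from 2 preparations of the modiolus, the central part of the cochlea with the spiral ganglion, the auditory nerve and its glia. Mice with small shifts of hearing threshold after ouabain had been excluded, and the sources do not name the animals behind each pool, so p-values measure only how far the pooled samples spread, which may be technical in part.

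Cholesterol is made from acetyl-CoA through mevalonate, farnesyl diphosphate, squalene and lanosterol, by enzymes whose genes share the sterol-responsive transcription factors encoded by Srebf1 and Srebf2. Fatty acids are made from the same acetyl-CoA, elongated and desaturated, and long hydroxylated chains are built into the galactolipids galactosylceramide and sulfatide. Myelin is unusually rich in cholesterol and in these galactolipids, and in a peripheral nerve Schwann cells make most of them locally.

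The stretches in front of the start sites of 5 genes are printed to show the sequence context of genes described in full further on, and no test linked these sequences to the expression values. They are the 250 bases before the annotated start, on the gene's own strand, 5′ to 3′, from the RefSeq annotation of the mouse genome build GRCm38.p6. Capitals mark every match, on either strand, to 4 short motifs of promoters. The sterol regulatory element was searched as TCACNCCAC. The E-box was searched as its palindrome CACGTG. The CCAAT box and its reverse were searched by the letters of the name, and the GC box was searched as GGGCGG. The genes are Hmgcs1 (chr13:119690101-119690350, plus strand), Idi1 (chr13:8885356-8885605, plus strand), Lss (chr10:76531355-76531604, plus strand), Insig1 (chr5:28071162-28071411, plus strand) and Ugt8a (chr3:125938653-125938902, minus strand).
Hmgcs1: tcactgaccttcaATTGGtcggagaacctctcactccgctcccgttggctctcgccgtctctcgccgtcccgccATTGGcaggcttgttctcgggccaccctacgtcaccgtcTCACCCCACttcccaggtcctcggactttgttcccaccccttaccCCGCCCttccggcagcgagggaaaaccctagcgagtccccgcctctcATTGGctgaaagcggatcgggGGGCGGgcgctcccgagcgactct
Idi1: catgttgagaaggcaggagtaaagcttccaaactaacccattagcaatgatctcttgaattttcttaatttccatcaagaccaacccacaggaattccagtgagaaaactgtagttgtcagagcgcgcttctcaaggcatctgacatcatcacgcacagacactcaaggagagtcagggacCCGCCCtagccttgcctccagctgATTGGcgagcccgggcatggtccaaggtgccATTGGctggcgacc
Lss: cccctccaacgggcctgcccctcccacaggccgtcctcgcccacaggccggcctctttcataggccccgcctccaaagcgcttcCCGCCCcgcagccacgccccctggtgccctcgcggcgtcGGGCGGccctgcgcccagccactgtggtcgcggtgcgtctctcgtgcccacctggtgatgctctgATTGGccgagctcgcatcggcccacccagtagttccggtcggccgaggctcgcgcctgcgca
Insig1: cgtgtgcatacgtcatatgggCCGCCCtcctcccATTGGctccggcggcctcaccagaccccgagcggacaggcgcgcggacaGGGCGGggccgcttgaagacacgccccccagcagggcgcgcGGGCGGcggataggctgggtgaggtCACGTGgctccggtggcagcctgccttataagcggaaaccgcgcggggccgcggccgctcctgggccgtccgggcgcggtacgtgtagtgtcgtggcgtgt
Ugt8a: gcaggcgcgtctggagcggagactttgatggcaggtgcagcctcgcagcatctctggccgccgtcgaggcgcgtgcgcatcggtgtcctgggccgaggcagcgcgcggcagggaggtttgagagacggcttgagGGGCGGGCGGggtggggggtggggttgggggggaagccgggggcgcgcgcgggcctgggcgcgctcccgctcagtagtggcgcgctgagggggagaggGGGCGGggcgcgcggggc

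A promoter was found in the RefSeq table for 24 of the 31 measured genes, and not for Sqle, Fdft1, Fdps, Fa2h, Scd1, Scd2 and Stard4. The sterol regulatory element was matched in front of 1 of these 24 genes, Hmgcs1, at 137 bases before the start, against 1.27% of the 14450 genes of the array that have a promoter in the table. The E-box was matched in front of 5 of the 24 genes (Dhcr7, Sc5d, Hsd17b7, Insig1 and Cers2), against 8.73% of the array's genes. The CCAAT box was matched in front of 21 of the 24, against 39.4% of the array's genes, and the GC box in front of 19, against 53.4%. Over all 32841 promoters of the table the shares were 1.05% for the sterol regulatory element, 6.02% for the E-box, 33.9% for the CCAAT box and 32.7% for the GC box. Of the stretches printed, those of Hmgcs1, Idi1, Lss and Insig1 hold both a CCAAT box and a GC box, and that of Ugt8a holds GC boxes and no CCAAT box. A match is a run of letters and was not tested for binding. A gene with several start sites was counted if any of them had a match. Only exact matches to the letters searched, in the stretch directly before each start, were counted. Variants of a motif and copies elsewhere were not searched, so a missing match does not show that a gene lacks the element.

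Ouabain-treated nerves held less RNA for much of the cholesterol pathway at both days. At 3 days 10 of the 31 genes were called lower and none higher, and at 7 days 11 were called lower and 1, Srebf1, higher. A gene was called where the adjusted p of the limma fit over all probe sets was under 0.05 and the fold change above 1.5. Over all genes 8.06% were called lower and 7.51% higher at 3 days, and 8.2% lower and 7.57% higher at 7 days. All 31 genes had a mean log2 value above 6, and among all genes above that level 10.9% were called lower at 3 days and 11% at 7 days. Of the 31 genes, 9 were called lower at both days, namely Hmgcs1, Idi1, Fdps, Fdft1, Sqle, Lss, Cyp51, Msmo1 and Fa2h, and 18 were called at neither.

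The shift also touched genes below the fold threshold. The median log2 fold change of the 31 genes was -0.37 at 3 days and -0.49 at 7 days, beside 0.01 and 0.03 over all genes at the same days. Negative values were found for 25 of the genes at 3 days and 26 at 7 days, beside 8747 and 8328 of all 18193 genes. With the fold threshold dropped, 16 of them were lower and 2 higher at 3 days, where 14.7% of all genes were lower and 15% higher, and 18 were lower and 2 higher at 7 days, where 14.5% of all genes were lower and 17.2% higher. The 3 ouabain values and the 3 control values did not overlap in 21 of the 31 genes at 3 days and in 24 at 7 days, against 43.6% and 46.1% of all genes. The tissue is a mixture of cells, and in such bulk samples fewer cells of a type and less RNA per cell cannot be told apart.

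**Figure D1:**
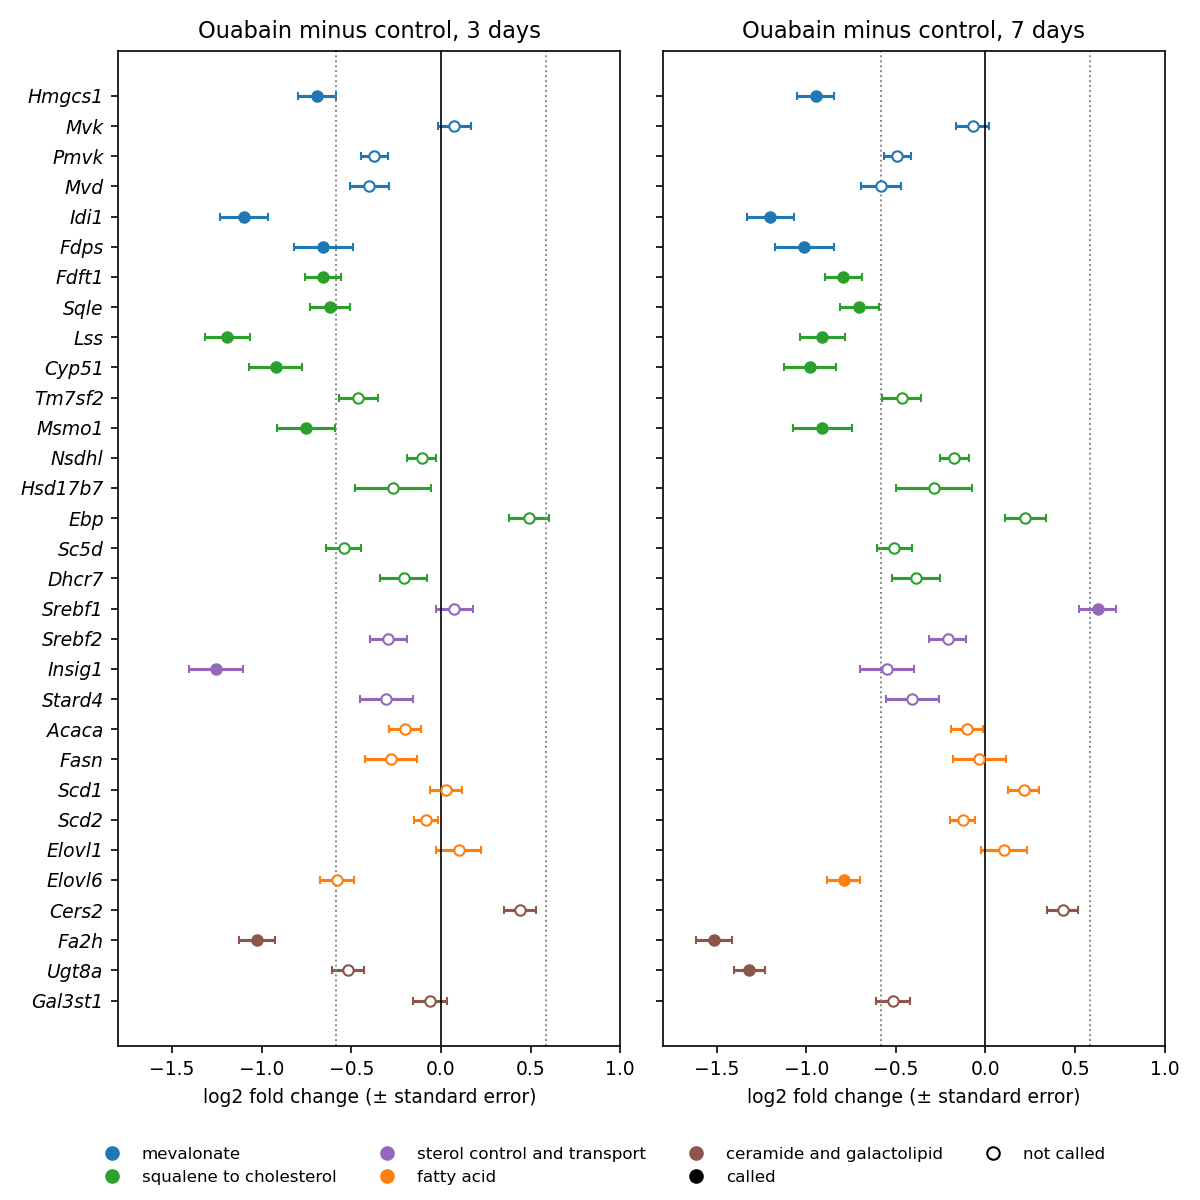
Log2 fold change of ouabain-treated over control nerves (horizontal axis) for each of the 31 genes (vertical axis, in pathway order) at 3 days (left) and 7 days (right). Bars are standard errors of the limma fit, filled points are called, and the dotted lines mark a fold of 1.5. The genes called lower at both days lie in the mevalonate and the squalene-to-cholesterol groups, with Fa2h the exception in the ceramide and galactolipid group.

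In the mevalonate segment 3 of 6 genes were called lower at each day, and the median log2 fold change of the 6 was -0.53 at 3 days and -0.76 at 7 days. Hmgcs1 encodes the cytosolic synthase that makes HMG-CoA, the substrate from which mevalonate is formed. Its log2 values were 12.28, 11.93 and 12.10 in ouabain-treated nerves and 12.96, 12.71 and 12.71 in control nerves at 3 days. At 7 days they were 11.89, 11.74 and 11.93 in ouabain-treated nerves and 12.79, 12.79 and 12.83 in control nerves. All 6 ouabain values were below all 6 control values. Hmgcs1 fell by 0.69 (SE 0.104, adjusted p = 0.000382) at 3 days and by 0.95 (adjusted p = 3.69e-05) at 7 days on the log2 scale in limma, and 4 of its 5 probe sets were called lower at each day.

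Idi1 encodes the isomerase that makes the reactive building block from which longer isoprenoids are assembled. In ouabain-treated nerves Idi1 read 9.93, 9.64 and 9.69 at 3 days, against 11.07, 10.79 and 10.69 in control nerves. At 7 days it read 9.72, 9.50 and 9.88 in ouabain-treated nerves, against 10.74, 10.99 and 10.98 in control nerves. The groups were clear of each other at both days, and the fold change (2.14-fold lower at 3 days, 2.30-fold lower at 7 days) was the largest of the segment at each day. Idi1 had adjusted p = 7.27e-05 and 3.74e-05 at 3 and 7 days in limma (SE 0.132 on the log2 scale), and both of its probe sets were called lower at each day.

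Fdps, the synthase of farnesyl diphosphate, from which sterols and protein prenyl groups both derive, was the least precise of the calls in this segment. Ouabain-treated nerves gave 8.65, 8.68 and 8.49 at 3 days and control nerves 9.25, 9.51 and 9.02. At 7 days ouabain-treated nerves gave 8.37, 8.40 and 8.96 and control nerves 9.43, 9.75 and 9.58. The groups did not overlap at either day, with ouabain replicate 3 at 7 days closest to its controls. Fdps fell by 0.66 (SE 0.165, adjusted p = 0.0115) at 3 days and by 1.01 (adjusted p = 0.000732) at 7 days in limma. The 3-day call was lost without control replicate 2 (-0.53, adjusted p = 0.0532) and without ouabain replicate 3 (-0.60, adjusted p = 0.0502). Its other probe set, with a mean log2 value of 2.91, was called at neither day.

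The enzymes between mevalonate and Idi1 gave smaller values. Mevalonate kinase (Mvk) had log2 fold changes of 0.07 and -0.07 at 3 and 7 days, with adjusted p = 0.665 and 0.648 in limma and overlapping groups. Phosphomevalonate kinase (Pmvk) had -0.37 and -0.49 (adjusted p = 0.00326 and 0.000505), and the decarboxylase Mvd had -0.40 and -0.58 (adjusted p = 0.0185 and 0.00198). Both stayed under the 1.5-fold threshold although neither had overlapping groups. Mvd sat next to the threshold at 7 days, at 1.497-fold lower, and was called there without control replicate 1 (-0.66), ouabain replicate 1 (-0.61) or ouabain replicate 3 (-0.66). The other Mvd probe set, with a mean of 6.30, was called lower at 7 days (-0.59, adjusted p = 0.0063 in limma) and not at 3 days (-0.39). The gene just inside the threshold was Sqle at 3 days, at 1.54-fold lower.

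**Figure D2:**
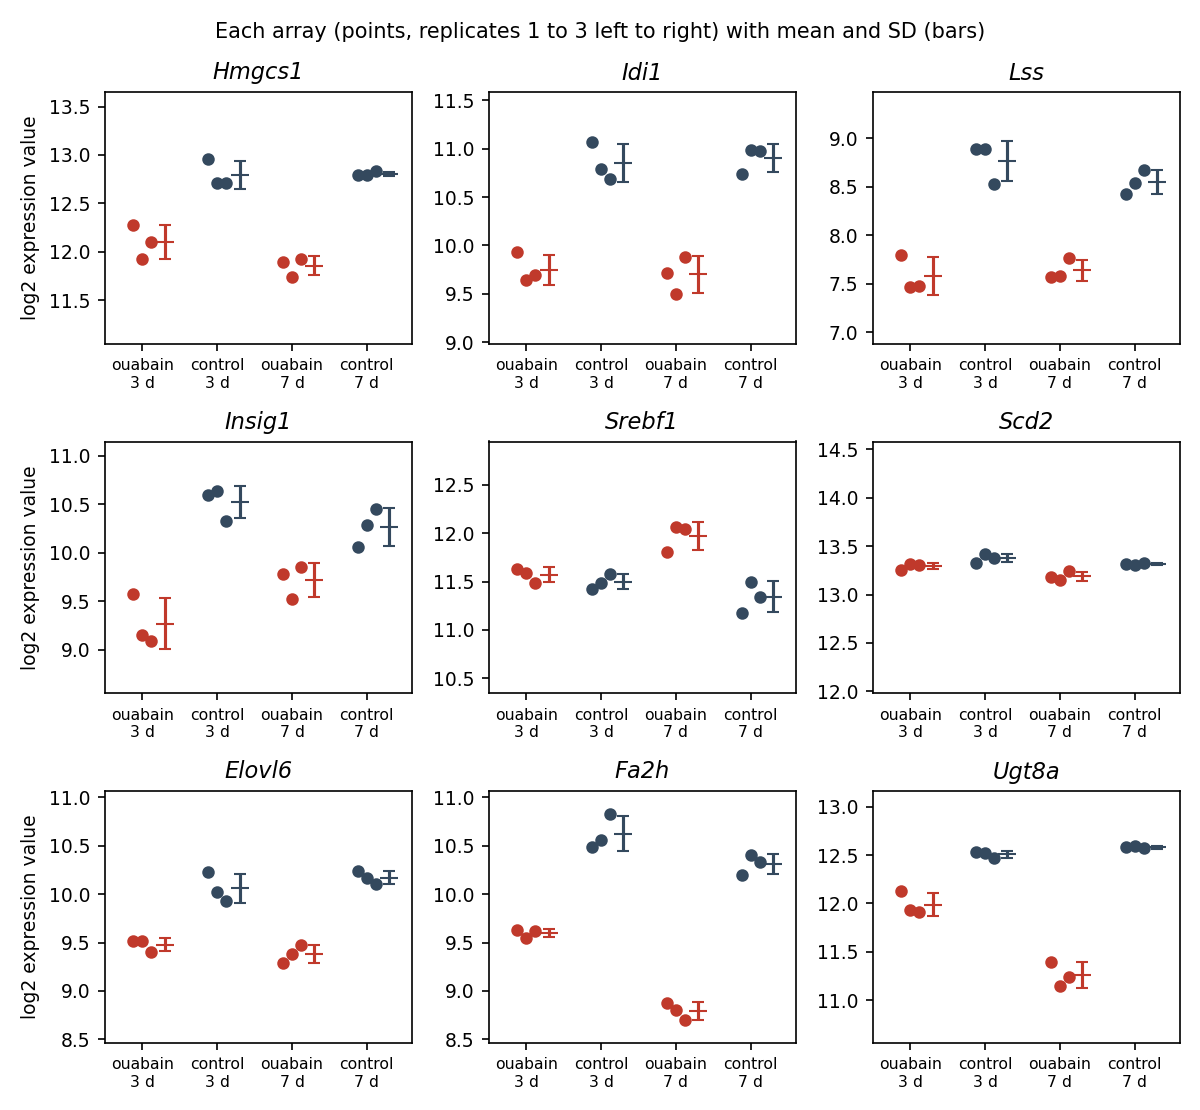
Log2 expression value (vertical axis, a span of 2.6 in every panel) of 9 genes on each array, with ouabain-treated nerves (red) to the left of control nerves (dark) at each day. Points are arrays and the bars beside them the mean and SD of 3 arrays. Hmgcs1, Idi1 and Lss were lower in ouabain-treated nerves at both days, Insig1 dipped most at 3 days and Srebf1 was higher at 7 days. The Scd2 probe set shown differed by at most 0.13 between the group means of a day. Fa2h and Ugt8a were lowest in ouabain-treated nerves at 7 days.

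From squalene to cholesterol 5 of 11 genes were called lower at each day, the same 5, with a median log2 fold change of the 11 of -0.54 at 3 days and -0.51 at 7 days. They encode the enzymes at the head of the branch, squalene synthase (Fdft1), squalene epoxidase (Sqle) and lanosterol synthase (Lss), and the lanosterol demethylase Cyp51 and the methylsterol oxidase Msmo1 that act on the first sterols. Lss, which closes the sterol rings, read 7.80, 7.46 and 7.47 in ouabain-treated nerves at 3 days, against 8.89, 8.89 and 8.53 in control nerves. At 7 days Lss read 7.57, 7.58 and 7.76 in ouabain-treated nerves, against 8.43, 8.54 and 8.67 in control nerves. The ouabain values lay below the control values at both days, and Lss fell by 1.19 (SE 0.127, adjusted p = 3e-05) and by 0.91 (adjusted p = 0.000224) in limma. A second Lss probe set gave smaller changes under the fold threshold, -0.39 at each day, and the remaining one, with a mean of 5.48, gave 0.02 and 0.00.

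Cyp51 read 8.31, 8.21 and 8.28 in ouabain-treated nerves at 3 days and 9.51, 9.17 and 8.90 in control nerves. At 7 days Cyp51 read 8.29, 8.11 and 8.36 in ouabain-treated nerves and 8.99, 9.35 and 9.35 in control nerves. The groups did not overlap at either day. The log2 fold changes were -0.92 and -0.98 (SE 0.146, adjusted p = 0.00056 and 0.000386 in limma), and 2 of 3 Cyp51 probe sets were called lower at 3 days and all 3 at 7 days.

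Fdft1, whose product commits farnesyl diphosphate to sterols, fell by 0.66 at 3 days and by 0.79 at 7 days (adjusted p = 0.000473 and 0.000123 in limma). The probe set used for Fdft1, like those used for Hsd17b7 and Elovl1, is of the x_at type, which can pair with related transcripts. A second Fdft1 probe set gave -0.78 and -0.76, both called, and the other two had means of 5.26 and 5.08 and were not called. Sqle, a rate-limiting oxygenase of the pathway, read 10.00, 9.83 and 9.80 in ouabain-treated nerves at 3 days and 10.64, 10.54 and 10.30 in control nerves. It fell by 0.62 at 3 days (adjusted p = 0.0012) and by 0.70 at 7 days (adjusted p = 0.000506) with no overlap of the groups at either day. The 3-day Sqle call was lost on the fold threshold without control replicate 1 (-0.54) or ouabain replicate 3 (-0.58). Msmo1 fell by 0.75 and by 0.91 (adjusted p = 0.00468 and 0.00142), with ouabain values at 7 days spread from 9.35 to 10.08. Its other probe set, with a mean of 3.57, gave -0.09 and -0.01, and with the mean over both probe sets the Msmo1 call was lost at both days (-0.42 and -0.46). The 7-day Msmo1 call was also lost in the methods' test after adjustment (adjusted p = 0.0921).

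The later steps of the branch gave smaller values and 1 of the opposite sign. Sc5d, the desaturase of the penultimate sterols, read 10.05, 10.08 and 10.01 in ouabain-treated nerves and 10.74, 10.56 and 10.47 in control nerves at 3 days. Its log2 fold changes of -0.54 and -0.51 (adjusted p = 0.00152 and 0.00251 in limma) missed the fold threshold at both days, without overlap of the groups. Sc5d was called at 3 days without control replicate 3 (-0.60) and at 7 days without control replicate 1 (-0.60), and a second Sc5d probe set was called at 3 days (-0.80). The sterol reductase Tm7sf2 had -0.46 and -0.47 (adjusted p = 0.0087 and 0.00793). Dhcr7, which carries out the last reduction to cholesterol, had -0.21 and -0.39 (adjusted p = 0.326 and 0.0494).

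Ebp, the sterol isomerase that acts just before Sc5d, was the only gene of this branch with positive values at both days. It read 10.22, 10.58 and 10.44 in ouabain-treated nerves at 3 days, against 9.91, 10.03 and 9.83 in control nerves, with no overlap. The log2 fold change of 0.49 (SE 0.113, adjusted p = 0.00676 in limma) missed the fold threshold, and reached it without ouabain replicate 1 (0.59). At 7 days the value was 0.22 (adjusted p = 0.186) and the groups overlapped. Nsdhl and Hsd17b7, which remove the methyl groups of the sterol nucleus together with Msmo1, had log2 fold changes between -0.29 and -0.11 at the 2 days and adjusted p from 0.147 to 0.452. The ouabain values of Hsd17b7 at 3 days were widely spread, at 9.86, 9.03 and 8.92. Its other probe sets disagreed in sign at 3 days, with 0.06, 0.36 and 0.07, none of them called, so no direction is given for Hsd17b7.

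The genes that sense or carry sterols did not move as one. Insig1, a membrane protein that holds the sterol-responsive factors inactive when sterols are plentiful, read 9.57, 9.15 and 9.09 in ouabain-treated nerves at 3 days, against 10.60, 10.64 and 10.33 in control nerves. At 7 days it read 9.78, 9.52 and 9.85 in ouabain-treated nerves, against 10.06, 10.29 and 10.45 in control nerves. The groups stood apart at both days, by less at 7 days. Insig1 fell by 1.26 (SE 0.150, adjusted p = 6.83e-05) at 3 days, the largest change among the 31 genes at that day. At 7 days its value of -0.55 (adjusted p = 0.0179) missed the fold threshold, and passed it without control replicate 1 (-0.65) or ouabain replicate 3 (-0.61). The difference between the responses of Insig1 at 7 and 3 days, 0.71 on the log2 scale (SE 0.212), did not pass the test (adjusted p = 0.16).

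Srebf1 encodes the factor tied mostly to fatty acid genes. Ouabain-treated nerves read 11.63, 11.59 and 11.49 at 3 days and control nerves 11.42, 11.49 and 11.58, with overlapping groups. At 7 days ouabain-treated nerves read 11.81, 12.06 and 12.04 and control nerves 11.18, 11.50 and 11.34, without overlap. Srebf1 was called higher at 7 days by 0.63 on the log2 scale (SE 0.103, adjusted p = 0.000768 in limma), against 0.07 at 3 days (adjusted p = 0.712). The call was lost on the fold threshold without control replicate 1 (0.55) or ouabain replicate 2 (0.58), and the difference between the days (0.55) had an adjusted p = 0.114. Srebf2, which encodes the factor tied mostly to sterol genes, had -0.29 and -0.21 (adjusted p = 0.0598 and 0.171), and the sterol carrier Stard4 had -0.31 and -0.41 (adjusted p = 0.177 and 0.0617). A second probe set of Srebf2, with a mean of 8.16, had -0.44 and -0.24 (adjusted p = 0.00422 and 0.0854 in limma), under the fold threshold. A second probe set of Stard4 was called lower at 3 days (-0.59).

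**Figure D3:**
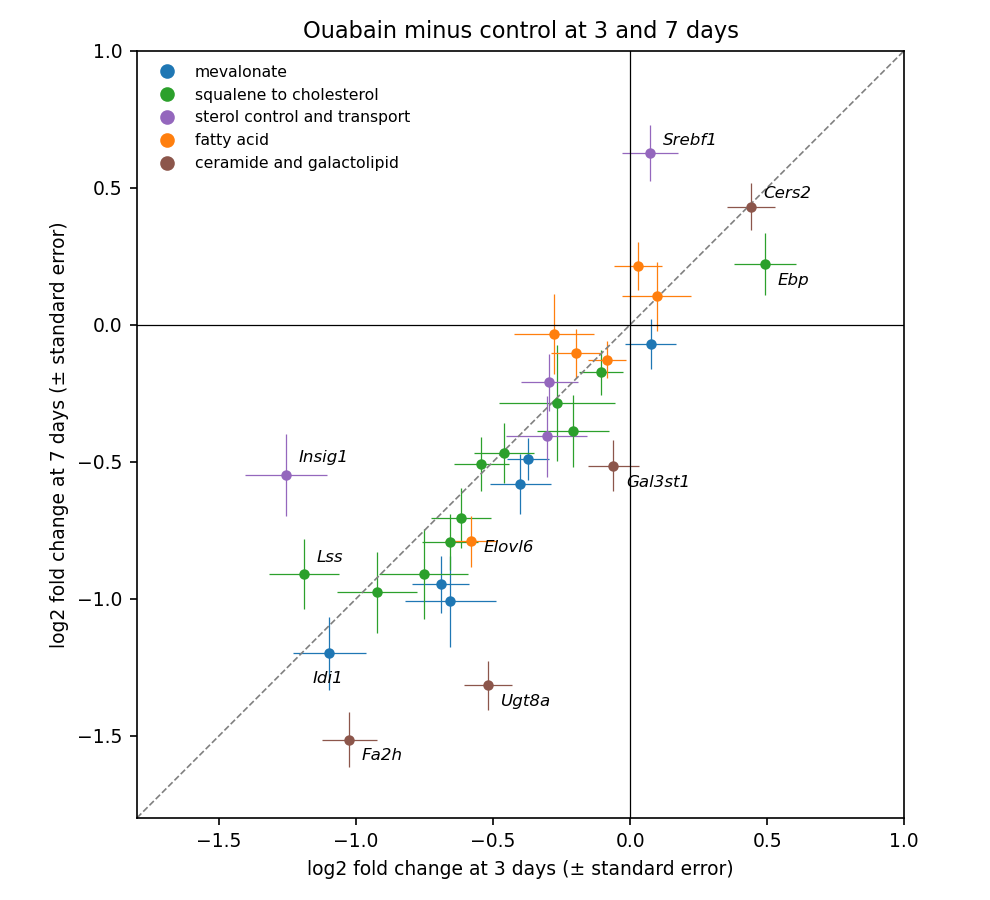
Log2 fold change of ouabain-treated over control nerves at 3 days (horizontal axis) and 7 days (vertical axis) for the 31 genes, with standard errors and colours by pathway segment; the dashed line marks equal values. Of the 31 genes, 22 lie below the line and 9 above it. Among the genes called lower at either day, only Insig1 and Lss lie above it. Ugt8a, Fa2h and Gal3st1 are among those below it, and only Ugt8a passed the test of the difference (-0.80).

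Fatty acid synthesis differed from the sterol branch in its values. None of its 6 genes was called at 3 days and 1, Elovl6, was called lower at 7 days, and the log2 fold changes of the 6 genes had medians of -0.14 and -0.07 at the 2 days. In the 17 measured enzymes of cholesterol synthesis 8 were called lower at each day, with medians of -0.54 and -0.58. The difference between these groups of genes was not tested. Acetyl-CoA carboxylase (Acaca) had log2 fold changes of -0.20 and -0.10 (adjusted p = 0.149 and 0.459 in limma), and fatty acid synthase (Fasn) had -0.28 and -0.03 (adjusted p = 0.219 and 0.905).

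Scd2, a desaturase that makes monounsaturated chains in neural tissue, read 13.25, 13.32 and 13.31 in ouabain-treated nerves and 13.33, 13.42 and 13.38 in control nerves at 3 days. At 7 days it read 13.18, 13.15 and 13.24 in ouabain-treated nerves and 13.32, 13.30 and 13.33 in control nerves. The ouabain values were below the control values at both days, but by only -0.08 and -0.13 on average, with adjusted p = 0.471 and 0.21 in limma. The other Scd2 probe sets, with means of 10.02 and 8.19, gave -0.22 and -0.13 at 3 days and -0.34 and -0.41 at 7 days. None of these was called, and the last had an adjusted p = 0.0139 in limma. The related desaturase Scd1 had 0.03 and 0.21 (adjusted p = 0.884 and 0.102), while its second probe set was called higher at 3 days (0.64). Elovl1, an elongase of very long chains, had 0.10 at each day (adjusted p = 0.678 and 0.622).

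Elovl6, which lengthens palmitate, was the one gene of the segment to be called. It read 9.52, 9.52 and 9.40 in ouabain-treated nerves at 3 days, against 10.23, 10.02 and 9.93 in control nerves, and at 7 days 9.29, 9.38 and 9.47 in ouabain-treated nerves, against 10.24, 10.17 and 10.10 in control nerves. The groups did not overlap at either day. The fold change was 1.496-fold lower at 3 days (adjusted p = 0.000609) and 1.73-fold lower at 7 days (adjusted p = 6.24e-05 in limma). At 3 days Elovl6 was called without control replicate 2 (-0.60), control replicate 3 (-0.64), ouabain replicate 1 (-0.60) or ouabain replicate 2 (-0.60), and a second probe set was called lower at both days (-0.61 and -0.76).

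The 4 genes of ceramide and galactolipid synthesis took different courses, and 2 of them gave the largest losses of the 31 genes at 7 days. Fa2h, the fatty acid hydroxylase that supplies hydroxylated chains to myelin galactolipids, read 9.63, 9.55 and 9.62 in ouabain-treated nerves at 3 days, against 10.49, 10.56 and 10.83 in control nerves. At 7 days Fa2h read 8.88, 8.80 and 8.70 in ouabain-treated nerves, against 10.20, 10.40 and 10.33 in control nerves. The gap between the groups exceeded the spread within them at both days. Fa2h was 2.04-fold lower at 3 days (adjusted p = 1.67e-05) and 2.86-fold lower at 7 days (adjusted p = 1.13e-06 in limma, SE 0.101 on the log2 scale), and the difference between the days, -0.49, had an adjusted p = 0.151.

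Ugt8a encodes the galactosyltransferase that makes galactosylceramide. Its values were 12.13, 11.93 and 11.91 in ouabain-treated nerves at 3 days, against 12.53, 12.52 and 12.47 in control nerves. At 7 days they were 11.40, 11.15 and 11.24 in ouabain-treated nerves, against 12.58, 12.59 and 12.57 in control nerves. The ouabain values at 7 days lay below those at 3 days, while the control values of the 2 days were within 0.12 of each other. Ugt8a was 1.43-fold lower at 3 days (adjusted p = 0.000899 in limma), under the fold threshold, and 2.49-fold lower at 7 days (adjusted p = 1.18e-06). Without ouabain replicate 1 it was called at 3 days too (-0.59). The 7-day response minus the 3-day response was -0.80 on the log2 scale (SE 0.125, adjusted p = 0.0119), the only such difference called among the 31 genes, where 1.17% of all genes were called. A second Ugt8a probe set was called lower at both days (-0.66 and -1.61).

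Gal3st1, which adds sulfate to galactosylceramide to give sulfatide, overlapped between the groups at 3 days, with values of 9.18, 9.17 and 9.45 in ouabain-treated nerves and 9.35, 9.23 and 9.40 in control nerves. At 7 days it read 9.08, 8.92 and 9.05 in ouabain-treated nerves and 9.51, 9.58 and 9.51 in control nerves. The log2 fold changes were -0.06 (adjusted p = 0.738) and -0.51 (adjusted p = 0.00157 in limma), the second under the fold threshold. Cers2, the synthase of ceramides with very long chains, had the opposite sign. It read 11.41, 11.51 and 11.65 in ouabain-treated nerves and 11.07, 11.09 and 11.09 in control nerves at 3 days, and at 7 days 11.43, 11.40 and 11.55 in ouabain-treated nerves and 10.91, 11.06 and 11.11 in control nerves. The groups stood apart at both days, with log2 fold changes of 0.44 and 0.43 (adjusted p = 0.00258 and 0.00311) under the fold threshold.

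The control nerves of the 2 days gave a measure of how far untreated tissue differs. None of the 31 genes was called between 7-day and 3-day controls, where 0.0165% of all genes were called, and the median log2 difference was 0.01, with single genes from -0.33 to 0.32.

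The median over the 31 genes was of like size on each ouabain-treated array of a day. Set against the mean of the controls of that day, the median over the genes was -0.33, -0.39 and -0.40 in ouabain replicates 1, 2 and 3 at 3 days, and -0.43, -0.54 and -0.46 at 7 days, while it ranged from -0.12 to 0.09 in the control arrays. Single genes were less even. All genes called at 3 days but Fdps and Msmo1 had their highest ouabain value of that day in replicate 1. Of the genes called lower at 7 days, only Fa2h and Ugt8a had it in replicate 1 of that day. The share of all genes with their highest ouabain value in replicate 1 was not counted. Neuronal markers spread more widely. Their median was -1.37 in ouabain replicate 1 at 3 days, against -3.01 and -2.93 in replicates 2 and 3. At 7 days it was -2.42 in ouabain replicate 1, against -4.00 and -3.95 in the others. Whether the lipid genes follow the neuronal markers over the arrays was not tested. Without ouabain replicate 1 of the same day, 12 of the 31 genes were called lower and 1 higher at 3 days, and 12 were called lower and 1 higher at 7 days. The shares of all genes called without these arrays were not counted.

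**Figure D4:**
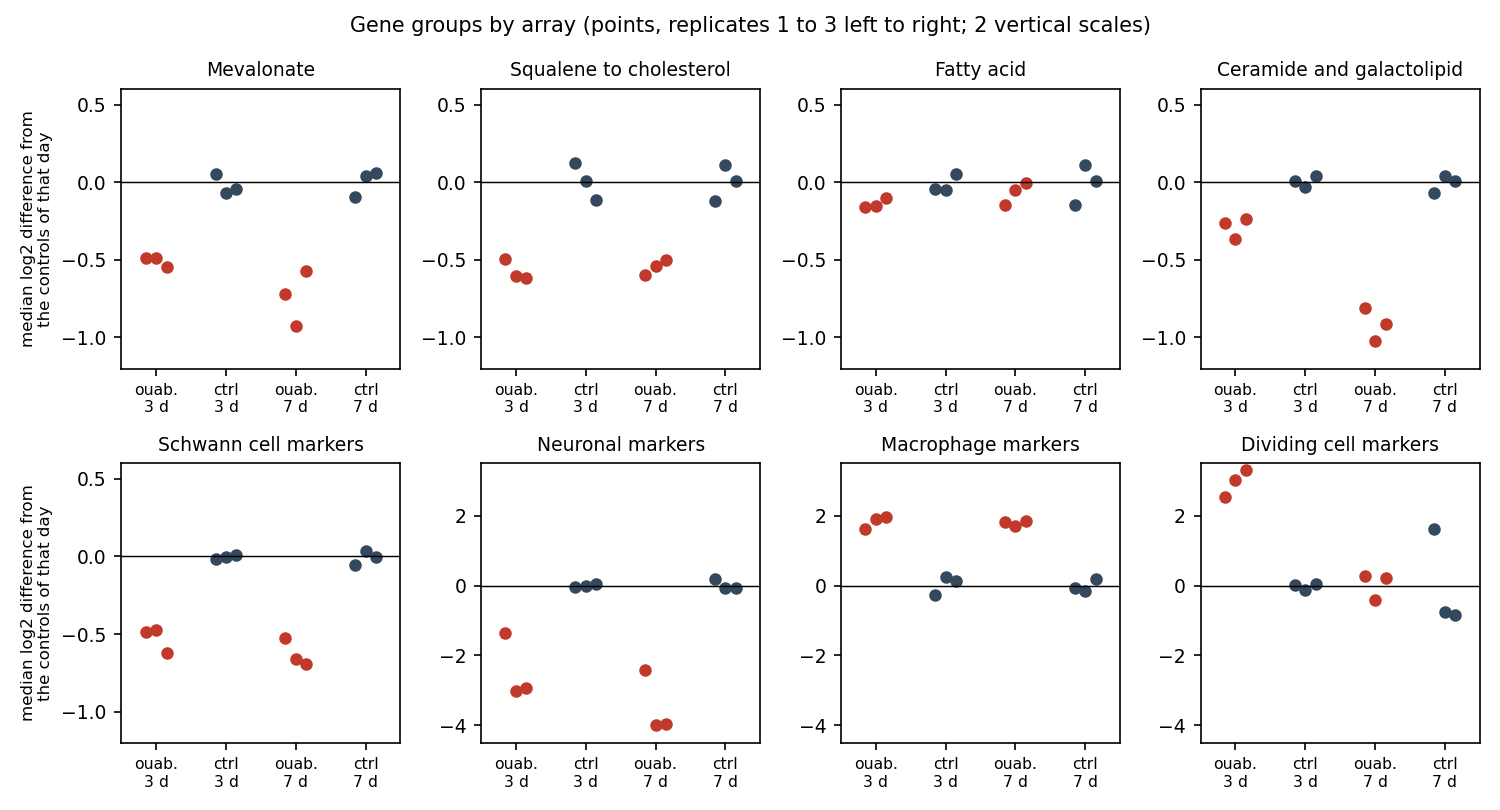
Median log2 difference from the mean of the controls of the same day (vertical axis) for 8 gene groups on each of the 12 arrays, with ouabain-treated nerves (red) left of control nerves (dark). The first 5 panels share a scale from -1.2 to 0.6 and the last 3 a wider scale. The mevalonate and squalene-to-cholesterol groups stood at -0.49 or lower on all 6 ouabain arrays, and 1 control array at 7 days stood apart in the markers of dividing cells.

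Markers of the cells in the tissue changed as well, in directions that differed between cell types. All 10 neuronal markers were called lower at both days, and their summed unlogged level ranged from 8437 to 23161 in ouabain-treated and from 56359 to 58117 in control nerves at 3 days, and from 3514 to 12065 in ouabain-treated and from 51800 to 57792 in control nerves at 7 days. Of 11 measured Schwann cell markers, some of them shared with other glia, 3 were called lower at 3 days, and 6 lower and 1 higher at 7 days, with medians of -0.53 and -0.60. Their summed level ranged from 53981 to 54671 in ouabain-treated and from 68938 to 71609 in control nerves at 3 days, and from 48722 to 53349 in ouabain-treated and from 65923 to 69148 in control nerves at 7 days. The largest changes among them were those of Drp2 (-1.85 and -2.30), a dystroglycan partner of Schwann cells, Ncmap (-1.47 and -2.48), a protein of noncompact myelin, and Egr2 (-0.78 and -1.74), the transcription factor of myelination. The gene called higher was Sox10, the glial lineage factor (0.66 at 7 days, and 0.51 at 3 days, not called). The markers called at neither day were Mbp (-0.13 and -0.10), Cnp (-0.19 and -0.21), S100b (-0.41 and -0.03) and Mag (0.48 and -0.43). Sox10 and these markers were named after their values were seen. Macrophage markers were called higher in 10 of 10 at 3 days and 9 of 10 at 7 days, and their summed level ranged from 17408 to 19853 in ouabain-treated and from 5018 to 6636 in control nerves at 3 days, and from 20157 to 21830 in ouabain-treated and from 5838 to 7618 in control nerves at 7 days. The part of these cell types in the values of the lipid genes was not tested.

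Markers of dividing cells were called higher in 7 of 7 at 3 days and in none at 7 days, where control replicate 1 stood 1.61 above the mean of its group and the others at -0.77 and -0.84. Their summed level ranged from 2191 to 3559 in ouabain-treated and from 357 to 460 in control nerves at 3 days, and from 504 to 857 in ouabain-treated and from 371 to 2352 in control nerves at 7 days. Without control replicate 1 at 7 days, 14 of the 31 lipid genes were called lower at that day and none higher. The share of all genes called without that array was not counted. None of the 5 measured adipocyte markers was called at either day, and their summed level stayed from 110 to 227 on all arrays. Of 5 oligodendrocyte markers 1, Opalin, was called higher at 7 days, and the medians of the 5 were 0.72 at 3 days and 0.37 at 7 days. Their summed level at 3 days ranged from 3384 to 5065 in ouabain-treated nerves and was 4841, 2341 and 2067 in control nerves. At 7 days it ranged from 4450 to 5734 in ouabain-treated and from 2630 to 4598 in control nerves. Of 8 markers of bone and marrow none was called.

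Other genes of the same pathways were counted from lists drawn up by function, with earlier results of these data known. Over all genes 8.06% were called lower and 7.51% higher at 3 days, and 8.2% lower and 7.57% higher at 7 days. Of 7 further sterol genes 1 was called, Mylip, the ligase that removes lipoprotein receptors, higher at both days (0.76 and 0.67). Of 17 further fatty acid genes 5 were called lower at 3 days and 3 lower and 1 higher at 7 days, and the medians were -0.17 and -0.14. They include Elovl4, an elongase of very long chains used by neurons (-1.69 and -2.13), Tecr, the reductase of the elongation cycle (-1.17 and -1.11), and Acss2, which makes acetyl-CoA from acetate (-1.26 and -1.32). Acly and Mlxipl, the other two called lower at 3 days (-0.59 and -0.81), were named after their values were seen. The desaturase Fads2 was called higher at 7 days (0.87). In Elovl4, Tecr and Acss2 ouabain replicate 1 at 3 days had the highest of the 3 ouabain values, at 9.70 for Elovl4 against 9.07 and 9.15. Most of the lipid genes called lower at that day shared this order. At 7 days the highest ouabain value was in replicate 1 for Elovl4 and Acss2 and in replicate 3 for Tecr.

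Of 14 further genes of sphingolipid and ether lipid synthesis none was called at 3 days. At 7 days Degs2, a ceramide desaturase and hydroxylase, and Sgms2, which makes sphingomyelin, were called higher (1.02 and 0.70), and Ugcg, which makes glucosylceramide, was called lower (-0.84). The median of the 14 was 0.05 at 3 days and 0.15 at 7 days.

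Of 16 measured genes for the uptake, storage, efflux and breakdown of lipids 3 were called higher at 3 days and 7 at 7 days, with none called lower. The medians were 0.26 and 0.53, and 4 of the 16 had negative values at 3 days and 3 at 7 days. The difference from the synthesis genes was not tested. Abca1, the exporter that loads cholesterol onto lipoprotein particles, read 12.78, 12.87 and 12.93 in ouabain-treated nerves at 3 days, against 11.25, 11.26 and 11.24 in control nerves, and at 7 days 12.52, 12.49 and 12.61 in ouabain-treated nerves, against 11.08, 11.09 and 11.19 in control nerves. Its groups were far apart at both days, with log2 fold changes of 1.61 and 1.42 (adjusted p = 1.15e-07 and 2.5e-07 in limma). Plin2, which coats lipid droplets, had 1.79 and 1.06 (adjusted p = 1.36e-06 and 5.5e-05), and Lipa, the lysosomal lipase that frees cholesterol from its esters, had 1.02 and 0.91 (adjusted p = 1.44e-05 and 2.98e-05). Lrp1, a receptor for lipoproteins and myelin debris, had 0.32 at 3 days and was called higher at 7 days (0.95, adjusted p = 3.63e-05).

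**Figure D5:**
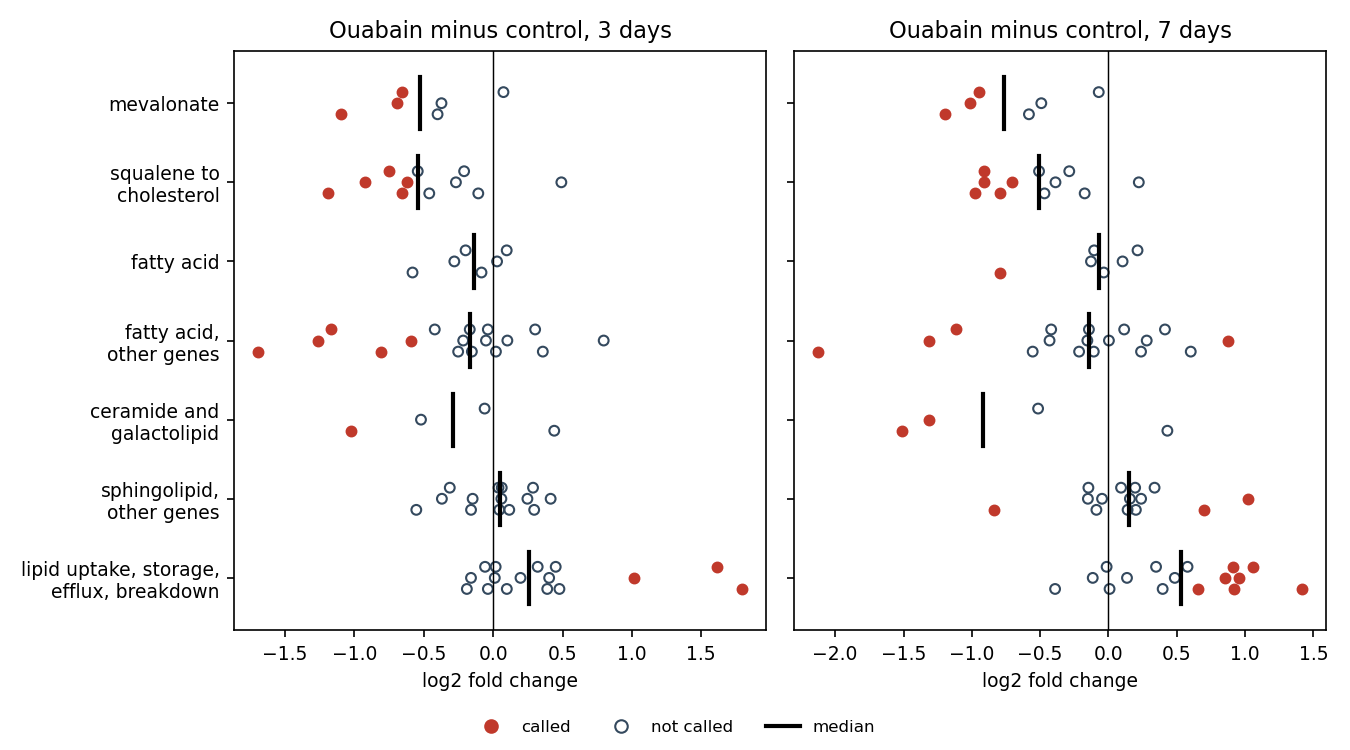
Log2 fold change of ouabain-treated over control nerves (horizontal axis) for each measured gene of 7 groups (vertical axis) at 3 days (left) and 7 days (right). Red points are called, open points are not, and black bars are group medians. The medians of the cholesterol groups lay between -0.76 and -0.51, and that of the uptake, storage, efflux and breakdown group at 0.26 and 0.53.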

How the data were processed

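RNA of 12 pooled auditory nerve samples, 3 in each of 4 groups, was hybridised to Affymetrix mouse arrays. The authors processed all arrays by RMA (background correction, quantile normalization, probe set summary) with Affymetrix Expression Console software of unstated version. The deposited table holds 1 log2 value for each probe set and array, and it entered the tests unchanged. RNA input is stated as 50 ng in the methods but as 100 ng in the labels. The methods also name MAS5 values, not used here. No column lacked a sample.

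The table has 45101 probe sets, 64 of them hybridisation controls that were dropped. Symbols came from the platform annotation: 34945 probe sets carry 1 symbol, 932 several and 9160 none, and only the first stand for genes. Group means of the 4 groups entered 1 fit in limma 3.58.1 (lmFit, eBayes; R 4.3.3), with Benjamini-Hochberg adjustment over 45037 probe sets. A call needed an adjusted p under 0.05 and a fold above 1.5. The contrasts were ouabain against control at 3 and at 7 days, the difference of these responses, and the controls of the 2 days. The procedure was tested on simulated data. Python 3.11.15 served for motifs and plots. The members and lists were chosen with earlier results of these data known. The genes named are all members and, of each other list, up to 4 called genes with the largest change. Quantile normalization in RMA sets the arrays to 1 distribution, so changes are relative to the other transcripts. The methods' own comparison, an unpaired test at p under 0.05 with the same fold, was an alternative beside other thresholds, filters, scalings, weights, probe set rules, a replicate block and the omission of each array. The number of arrays limits the precision, and standard errors of the genes ranged from 0.068 to 0.211.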

Additional observations from a re-analysis of the deposited data

Results flagged for a closer look

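The response of Ugt8a, the galactosylceramide synthase gene, differed between the days: the 7-day minus the 3-day log2 fold change was -0.80 (SE 0.125, adjusted p = 0.0119 in limma, fitted on all 12 arrays), and all 3 ouabain values at 7 days lay below all 3 at 3 days.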

How the results depend on the processing

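The number of genes called, 10 at 3 days and 12 at 7 days, was 18 and 20 with no fold threshold and 4 and 4 with a fold above 2, where the difference between the days also lost its 1 call (0). Leaving out each array in turn gave 8 to 13 calls at 3 days, 11 to 14 at 7 days, 1 to 1 for the difference between the days and 0 to 0 between the controls, and medians from -0.42 to -0.36 and from -0.51 to -0.47. Shares over all genes were counted only for the main rule and with no fold threshold, so the counts under other settings have no such background. The sources do not state that equal replicate numbers mark the same animals, so they were not taken as pairs. Deviations of arrays with equal numbers had r = 0.33, 0.09 and 0.18 at 3 days and 0.28, 0.16 and 0.02 at 7 days. For unequal numbers r ranged from -0.33 to 0.15 over both days. With the number as a replicate block 10 and 12 genes were called. The methods' test gave 10 and 12 calls unadjusted and 9 and 9 after adjustment, where Fdps lost its call at both days and Msmo1 and Srebf1 at 7 days. With the mean over all probe sets of a gene 8 genes were called at each day, and calls of Fdft1, Fdps, Lss and Msmo1 were lost at both days and that of Elovl6 at 7 days, while Sc5d and Ugt8a gained one at 3 days and Mvd at 7 days; this mean includes dim probe sets. Subtracting each array's 75th percentile lost Sqle at 3 days (-0.58). Signs of uncalled genes turned for Hsd17b7 at 3 days (-0.27 with its brightest probe set, 0.0567 under the mean over probe sets) and Mvk at 7 days (0.0016) under the same mean, Scd1 at 3 days without control replicate 2 (range over the arrays left out -0.0105 to 0.0759), and Fasn at 7 days without control replicate 2 or ouabain replicate 1 (range -0.121 to 0.0324).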
